A study of Mus musculus with 16 samples.

Results

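The genes described here are acute phase proteins and partners of the acute phase response: Serpina3n, Saa3, Lcn2, Hp, Hpx, Cp, C3, Lrg1 and Steap4. They were chosen by gene symbol, and every probe set that names exactly 1 of them was taken. 8 of the 9 genes were measured in this way, by 16 of the 34945 probe sets with 1 gene symbol, among 18193 genes in all. Cp had 8 probe sets, Steap4 had 2 and the other 6 genes had 1 each. C3 was named by no such probe set and is not analysed here.

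Acute phase proteins are secreted in larger or smaller amounts during inflammation, injury or infection, mostly by the liver, but also by epithelia, macrophages, fat cells and, for some, astrocytes. Interleukin 6 acting through STAT3, interleukin 1 acting through NF-kB, and C/EBP factors switch on their genes. Glucocorticoids act through the glucocorticoid receptor, which is known to enhance the induction of several of these genes in liver cells while it restrains many inflammatory cytokines. Steap4 differs from the others in being a membrane-bound metalloreductase and not a plasma protein.

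RNA was measured on 16 Affymetrix mouse arrays, 4 in each of 4 groups of C57BL/6J mice taken at postnatal day 7. The groups were whole lung after dexamethasone, whole lung after vehicle, whole cerebellum after dexamethasone and whole cerebellum after vehicle. Dexamethasone is a synthetic glucocorticoid, the series' title calls its treatment chronic, and no other allele or agent is named in the labels. The labels used here do not give dose, schedule, sex or litter, or whether an array holds 1 animal or a pool, so p-values cover only the spread between samples, which may be partly technical. Arrays are called here by the replicate names in their labels.

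All values are log2 intensities made by the authors with RMA, which gives every probe set a value whether or not its transcript is detected. They ran from 3.15 to 14.8, with array medians between 5.87 and 6.00, and a value is called dim below if it lay at or under the median of its own array. Whole organs mix many cell types, so more or fewer cells of a type cannot be told apart from more or less RNA per cell. Lung and cerebellum carried their own markers: 8 alveolar type 2 genes averaged 12.3 to 13.1 on the lung arrays, and 9 granule and Purkinje neuron genes averaged 11.1 to 11.9 on the cerebellar arrays and 5.25 to 5.51 on the lung arrays. In lung, the signal of the Gapdh 3′ control minus that of its 5′ control, which rises as RNA is degraded or copied less fully, was 0.446 to 0.708 on the dexamethasone arrays and 0.840 to 1.04 on the vehicle arrays. The ranges did not overlap, so treatment and this measure of RNA quality cannot be told apart in lung. Xist, the RNA of the inactive X chromosome, was above 10 on arrays B28, B31 and B46 of the dexamethasone lungs and B14 of the vehicle lungs and under 7 on the other 4 lung arrays, so sexes were unevenly spread over the lung groups.

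Among the measured genes, Hpx and Cp had matches to sites of the factors named above but are not shown. The upstream sequences of 4 others with such matches are shown. Each is the 250 bases before the start of the gene in RefSeq's mouse table (GRCm38.p6), 5′ to 3′ on the gene's strand, with matches in capitals. 7 of the 8 measured genes had an entry. Serpina3n lay at chr12:104406458-104406707 on the plus strand, Saa3 at chr7:46715677-46715926 on the minus strand, Lcn2 at chr2:32387740-32387989 on the minus strand and Steap4 at chr5:7960222-7960471 on the plus strand.
Serpina3n: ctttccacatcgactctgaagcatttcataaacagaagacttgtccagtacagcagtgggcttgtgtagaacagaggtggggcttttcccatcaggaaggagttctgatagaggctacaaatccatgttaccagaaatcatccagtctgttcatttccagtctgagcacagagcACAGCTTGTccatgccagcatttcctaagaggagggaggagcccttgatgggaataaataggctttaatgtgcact
Saa3: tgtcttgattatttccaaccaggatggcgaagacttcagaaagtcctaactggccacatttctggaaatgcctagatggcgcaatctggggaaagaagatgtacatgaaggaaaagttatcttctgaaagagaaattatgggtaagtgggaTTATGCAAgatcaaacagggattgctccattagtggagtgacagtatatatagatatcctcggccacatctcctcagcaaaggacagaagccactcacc
Lcn2: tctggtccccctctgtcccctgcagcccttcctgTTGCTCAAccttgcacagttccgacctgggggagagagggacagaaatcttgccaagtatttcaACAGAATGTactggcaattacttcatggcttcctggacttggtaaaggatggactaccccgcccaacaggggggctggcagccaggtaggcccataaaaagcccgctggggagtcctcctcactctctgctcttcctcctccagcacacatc
Steap4: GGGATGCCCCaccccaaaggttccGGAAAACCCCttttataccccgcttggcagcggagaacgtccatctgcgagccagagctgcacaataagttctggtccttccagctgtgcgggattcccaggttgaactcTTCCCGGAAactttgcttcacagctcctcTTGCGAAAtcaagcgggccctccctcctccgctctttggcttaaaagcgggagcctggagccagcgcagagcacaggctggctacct

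Both strands were searched for 4 motifs. The core of a glucocorticoid response element, ACANNNTGT, stood 76 to 68 bases before the start of Serpina3n and 152 to 144 bases before that of Lcn2, and 5.84% of all 32851 promoter windows of that length held it. A C/EBP motif, TTGCNNAA, lay at 99 to 92 bases before the start of Saa3, 216 to 209 bases before that of Lcn2 and 87 to 80 bases before that of Steap4, against 9.56% of all windows. The STAT motif TTCNNNGAA was found only in Steap4 among the 7 genes searched, at 116 to 108 bases, with 7.02% of all windows holding it. Steap4 also had the NF-kB motif at 250 to 241 and at 226 to 217 bases, a motif held by 3.90% of all windows. Hpx and the more downstream of the 2 Cp windows each held a C/EBP motif, and Lrg1 and the other Cp window held none of the 4. No match overlapped another. A match is a description of the letters and no evidence of binding.

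By its brightest probe set, each of the 8 measured members read higher in dexamethasone lungs than in vehicle lungs, although for Cp other probe sets did not. All 8 genes passed the test for a rise (limma, Benjamini-Hochberg adjusted p under 0.05 over all 18193 genes), in a comparison in which 15.7% of all genes rose and 15.5% fell. The mean change ranged from 1.77-fold for Cp to 19.6-fold for Serpina3n, with a median over the members of 1.91 on the log2 scale against 0.05 over all genes. The members were chosen with earlier results of these data known. Their counts and median beside those of all genes are therefore a description and no test of the list. In 5 of the 8, every dexamethasone lung lay above every vehicle lung, as did 15.1% of all genes. In cerebellum no member passed the test, where 4.80% of all genes did in either direction, 2.84% rising and 1.97% falling. None of the 8 had every dexamethasone cerebellum above every vehicle cerebellum, as 7.13% of all genes did. The plot of the 8 genes by array shows the 4 groups side by side.

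**Figure D1:**
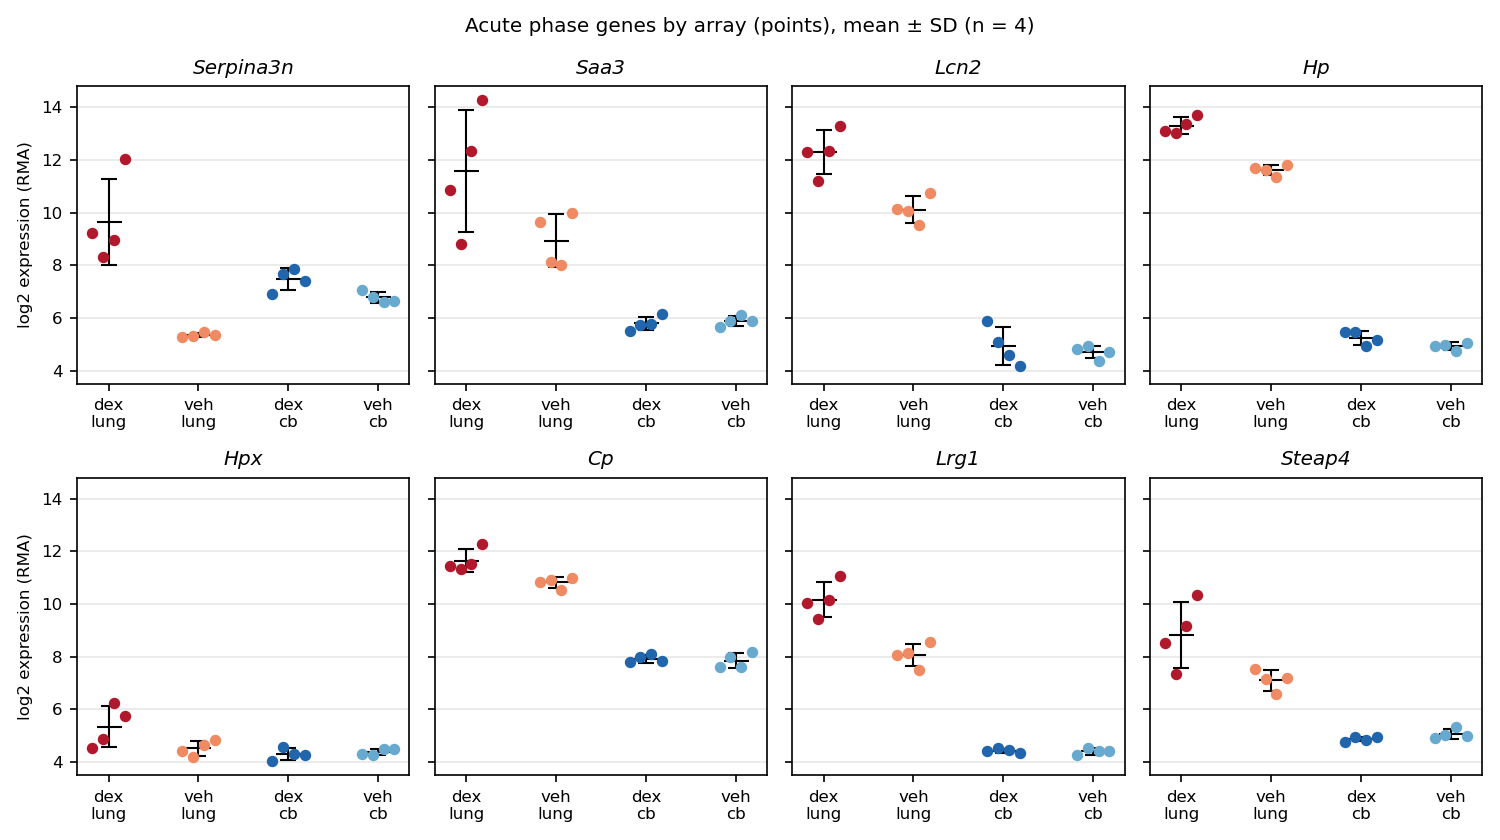
Log2 RMA intensity of the 8 measured members, 1 panel per gene, on each of the 16 arrays, with points for arrays and bars for the mean and SD of each group of 4. In lung the dexamethasone arrays lie above the vehicle arrays without overlap for Serpina3n, Lcn2, Hp, Cp and Lrg1, while the cerebellar groups overlap for every gene.

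Serpina3n encodes a secreted inhibitor of serine proteases, a counterpart of human alpha-1-antichymotrypsin. Its log2 intensity was 9.24, 8.32, 8.96 and 12.05 on the dexamethasone lung arrays B28, B31, B40 and B46, against 5.27, 5.32, 5.46 and 5.35 on the vehicle lung arrays B12, B14, B19 and B22. The 4 vehicle lungs lay within 0.2 of each other and were all dim, and the 4 dexamethasone lungs stood far above them but spread widely among themselves, B46 being the highest. The rise was 4.29 ± 0.53 (SE) on the log2 scale, or 19.6-fold, with an adjusted p of 1.11e-05, the third largest rise of the 18193 genes. Without B46 it was 3.49, and with the lung arrays fitted alone, which drops the smaller spread of the cerebellar arrays, the adjusted p was 0.000979. Because RMA compresses dim values, the vehicle level and thus the fold are imprecise. The mouse Serpina3 genes are close copies of each other, so part of the signal of this probe set could come from another of them. Serpina3i, the only other one tested, was dim in lung and changed by 0.01 (adjusted p = 0.954).

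Saa3 encodes a serum amyloid A protein made largely outside the liver. It read 10.88, 8.79, 12.35 and 14.30 on the dexamethasone lung arrays B28, B31, B40 and B46, against 9.63, 8.13, 8.001 and 9.98 on the vehicle lung arrays. Both groups were spread out and they overlapped, since B31 of the dexamethasone lungs lay below B12 and B22 of the vehicle lungs. The mean rise was 2.64 ± 0.78 (SE), 6.25-fold, with an adjusted p of 0.0158. This call did not hold on the lung arrays alone (adjusted p = 0.0762), and it was lost without B14 (0.0507) or B19 (0.0512) of the vehicle lungs. The change was 1.74 without B46 and 3.57 without B31, so those 2 dexamethasone lungs set its size.

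Lrg1 encodes a secreted leucine-rich glycoprotein that is found in plasma and in neutrophil granules and modifies TGF-β signalling in blood vessels. It read 10.03, 9.44, 10.15 and 11.06 on the dexamethasone lung arrays B28, B31, B40 and B46, against 8.08, 8.14, 7.51 and 8.55 on the vehicle lung arrays. The groups were separated by about 0.9, and B46 was again the highest and B31 the lowest of the dexamethasone lungs. The rise was 2.10 ± 0.25 (SE), 4.30-fold, with an adjusted p of 9.09e-06.

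Among Lcn2, Hp, Hpx and Cp, the secreted members that handle iron, haem or copper, Lcn2 and Hp had the larger rises. Lcn2 encodes lipocalin 2, which withholds iron from bacteria by binding their siderophores. It read 12.31, 11.22, 12.36 and 13.28 on the dexamethasone lung arrays, against 10.13, 10.06, 9.52 and 10.74 on the vehicle lung arrays, with a gap of about 0.5 between the groups. The rise was 2.18 ± 0.38 (SE), 4.52-fold, with an adjusted p of 0.000367. Hp encodes haptoglobin, which captures haemoglobin set free from red cells. It read 13.11, 13.02, 13.36 and 13.72 on the dexamethasone lung arrays and 11.71, 11.60, 11.36 and 11.83 on the vehicle lung arrays. Hp varied least within the groups relative to its change, 1.68 ± 0.16 (SE) or 3.201-fold, and had the smallest adjusted p of the members, 6.97e-07. Its probe set was already bright in vehicle lungs.

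Hpx encodes hemopexin, which carries free haem to the liver. Hpx read 4.53, 4.86, 6.26 and 5.75 on the dexamethasone lung arrays, against 4.41, 4.196, 4.63 and 4.83 on the vehicle lung arrays. Only B40 of the dexamethasone lungs lay above the median of its array, B28 lay below 2 vehicle lungs, and all 4 vehicle lungs were dim. The mean rise of 0.83 ± 0.27 (SE), 1.78-fold, had an adjusted p of 0.0288. It was no longer called on the lung arrays alone (0.0978), with array weights (0.0662), or without B40 (0.0932), B46 (0.0871), B12 (0.0662) or B14 (0.0867), and its size fell to 0.53 without B40.

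Cp encodes ceruloplasmin, a copper-carrying ferroxidase that oxidises iron as it leaves cells. Its brightest probe set, 1417494_a_at, read 11.44, 11.33, 11.51 and 12.29 on the dexamethasone lung arrays and 10.85, 10.92, 10.54 and 10.97 on the vehicle lung arrays. The groups did not overlap, and the rise was 0.82 ± 0.19 (SE), 1.77-fold, with an adjusted p of 0.00278. The 8 probe sets of Cp divided into 2 sets of 4. In one set the change in lung was between 0.80 and 0.90, each called and with no overlap of the groups. In the other set it was between −0.70 and −0.01, none called and all overlapping, the most negative being 1441326_at at −0.70 (adjusted p = 0.0693). The mean of all 8 probe sets changed by 0.26, with an adjusted p of 0.275. Which parts of the Cp transcripts each probe set reads is not given in the files used here, so the rise of Cp holds for some of its probe sets and not for the gene as a whole. All 8 probe sets were called higher in lung than in cerebellum, in dexamethasone and in vehicle mice alike.

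**Figure D2:**
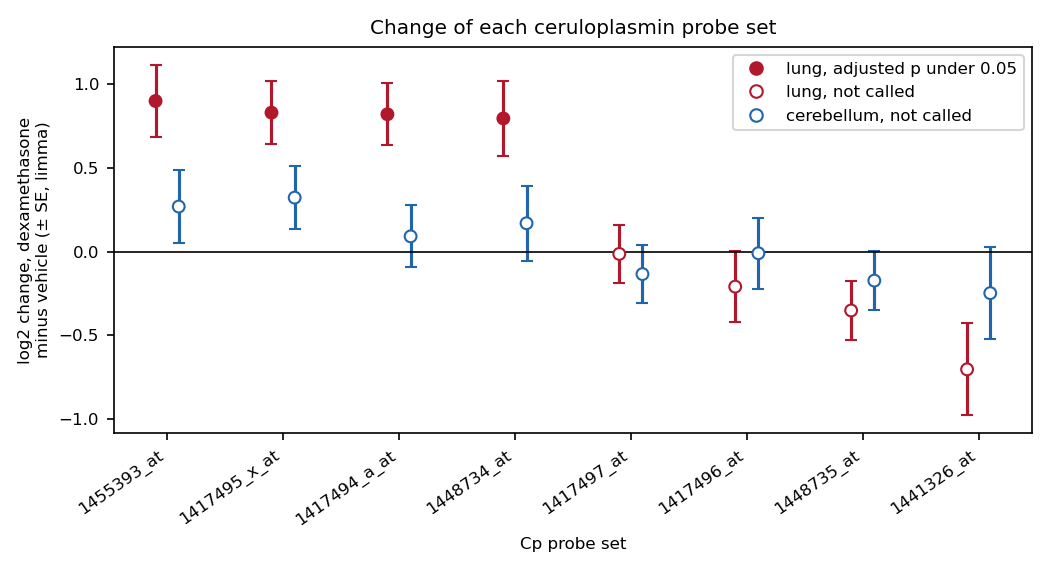
Change of each of the 8 Cp probe sets with dexamethasone in lung and in cerebellum, as log2 dexamethasone minus vehicle with its standard error (4 arrays per group). In lung 4 probe sets lie between 0.80 and 0.90 and the other 4 between −0.70 and −0.01, and in cerebellum none passed the test.

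Steap4 encodes a metalloreductase that reduces iron and copper at cell membranes. Its brighter probe set, 1460197_a_at, read 8.51, 7.34, 9.15 and 10.34 on the dexamethasone lung arrays, against 7.52, 7.17, 6.57 and 7.19 on the vehicle lung arrays. B31 of the dexamethasone lungs lay below B12 of the vehicle lungs, and the other 3 dexamethasone lungs lay above every vehicle lung. The rise was 1.72 ± 0.41 (SE), 3.30-fold, with an adjusted p of 0.00393, and it was 1.22 without B46 and 2.22 without B31. The second probe set, 1425829_a_at, was higher in dexamethasone lungs by 1.25, or 2.37-fold, with no overlap (adjusted p = 0.000165). It was dim on all lung arrays but B46, so this fold is imprecise and adds little to that of the brighter probe set.

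The members tended to keep the same order of dexamethasone lungs. B46 was the highest of the 4 for 7 of the 8 members and B31 the lowest for 7, the exception being Hpx in both cases. Averaged over the 8 members, the log2 intensity was 11.6 on B46, 10.5 on B40, 10.0 on B28 and 9.29 on B31, against 7.95 to 8.68 on the vehicle lung arrays. Every dexamethasone lung thus lay above every vehicle lung in this average. On the vehicle lung arrays B22 was the highest for 6 members and B19 the lowest for 6. The members were read from the same arrays, so this order is not 8 separate observations. B46 was also the array given the lowest weight, 0.264, when arrays were weighted by how far they lay from their group over all genes.

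Several of the lung calls depended on whether RNA quality was in the fit. With the Gapdh 3′ minus 5′ difference as a covariate, Serpina3n (3.64, adjusted p = 0.0152), Hp (1.66, 0.00124) and Lrg1 (1.70, 0.0162) were still called. The other 5 were not: Saa3 (1.199, 0.635), Lcn2 (1.59, 0.134), Hpx (0.82, 0.323), Cp (0.97, 0.0668) and Steap4 (1.11, 0.354) kept a positive change. Without the covariate the changes of Saa3, Lcn2 and Steap4 were larger, at 2.64, 2.18 and 1.72. Those of Hpx and Cp were 0.83 and 0.82, so these 2 lost the call without a clearly smaller change. In that fit 856 genes rose in lung, against 2860 without the covariate. With Xist as a covariate all 8 members were called.

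In cerebellum, Serpina3n came nearest to a change. It read 6.93, 7.68, 7.87 and 7.41 on the dexamethasone cerebellar arrays B39, B49, B50 and B52, against 7.07, 6.81, 6.61 and 6.64 on the vehicle cerebellar arrays B78, B79, B80 and B81. B39 of the dexamethasone cerebella lay below B78 of the vehicle cerebella, and the other 3 dexamethasone arrays lay above all vehicle arrays. The difference was 0.69 ± 0.53 (SE), 1.61-fold, with an adjusted p of 0.602. This error pools all groups and is set largely by the dexamethasone lungs, whose SD was 1.65, while those of the dexamethasone and vehicle cerebella were 0.41 and 0.21. With the cerebellar arrays fitted alone the adjusted p was 0.0837, and without the lung array B46 it was 0.0483. Astrocytes are a known source of Serpina3n in brain. The 9 astrocyte genes averaged 11.13 to 11.27 on the dexamethasone and 11.11 to 11.30 on the vehicle cerebellar arrays. Of the 9, 1 rose and none fell, beside 2.84% and 1.97% of all genes.

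The other 7 members differed little between the cerebellar groups. Hp was 5.25 ± 0.26 in dexamethasone and 4.93 ± 0.14 in vehicle cerebella (SD, n = 4 each), a difference of 0.32 with a limma adjusted p of 0.325. The changes of Lcn2, Cp, Lrg1, Hpx, Saa3 and Steap4 were 0.23, 0.09, 0.03, −0.09, −0.10 and −0.21, with adjusted p-values from 0.872 to 0.981. No member passed even an unadjusted p of 0.05, although 3090 genes did. These limma p-values pool the error of all groups, lungs included, which for some members is wider than the cerebellar spread. On the cerebellar arrays alone the SE of Saa3 was 0.14 instead of 0.78 and that of Steap4 0.11 instead of 0.41. In that limma fit the lowest adjusted p of these 7 was 0.250 for Hp, and that of Steap4 was 0.356. Lcn2, Hp, Hpx, Lrg1 and Steap4 were dim on all 8 cerebellar arrays, where a change of a very low transcript would not be seen. Saa3 lay above the array median on only 1 of the 4 arrays of each cerebellar group. The median change of the members was 0.06, against 0.01 over all genes.

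**Figure D3:**
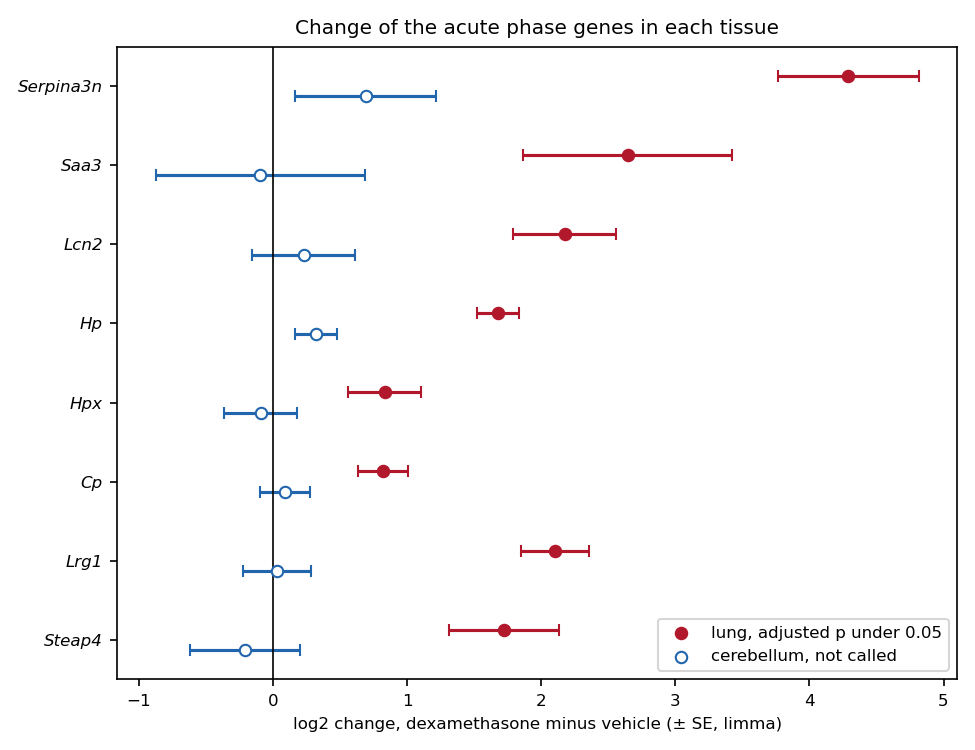
Change with dexamethasone of the 8 members in lung and in cerebellum, as log2 dexamethasone minus vehicle with the moderated standard error of the fit (4 arrays per group). The lung changes run from 0.82 for Cp to 4.29 for Serpina3n, and the cerebellar changes from −0.21 for Steap4 to 0.69 for Serpina3n.

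The response differed between the tissues for 5 of the 8 members, by the test of the lung change minus the cerebellar change. 9.85% of all genes were called higher in this comparison. The difference was 3.60 ± 0.74 (SE) for Serpina3n (adjusted p = 0.00241), 2.07 ± 0.36 for Lrg1 (0.000599), 1.95 ± 0.54 for Lcn2 (0.0170), 1.93 ± 0.58 for Steap4 (0.0251) and 1.36 ± 0.22 for Hp (0.000389). Saa3 differed by 2.74 ± 1.10 (0.0920), Hpx by 0.93 ± 0.39 (0.106) and Cp by 0.73 ± 0.26 (0.0591), which did not pass. Each of these 3 passed under some alternatives. Saa3 passed without B31 (3.67, 0.00460) and Hpx without B28 (1.20, 0.0188). Cp lay near the threshold and passed without B31 (0.0359) or B80 (0.0495), with dim genes left out (0.0477), after quantile (0.0394) or cyclic loess normalization (0.0398), with a variance trend (0.0475) and with Xist as a covariate (0.0493). Steap4 missed the threshold without B19 (0.0532). With the Gapdh covariate, Lcn2 (1.51, 0.170) and Steap4 (1.47, 0.214) were not called.

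Serpina3n changed its place between the tissues with treatment. In dexamethasone mice it was higher in lung than in cerebellum, 9.64 ± 1.65 against 7.47 ± 0.41, by 2.17 on the log2 scale or 4.50-fold (adjusted p = 0.00158). In vehicle mice it was lower in lung than in cerebellum, 5.35 ± 0.08 against 6.78 ± 0.21 (SD, n = 4 each), by 2.69-fold (limma adjusted p = 0.0276). The lung and cerebellar arrays did not overlap in either case. The vehicle call was lost without any 1 of B78, B79, B12, B14 or B22 (adjusted p = 0.0505 to 0.0654) and with the Gapdh covariate (0.929), whereas on the vehicle arrays alone its adjusted p was 4.79e-07.

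The other members were higher in lung than in cerebellum in both treatments, except Hpx in vehicle mice. In vehicle mice 7 of the 8 differed between the tissues, where 57.7% of all genes did. Of these, 6 were higher in lung, as were 5086 of the 18193 genes, and Serpina3n was lower in lung, as were 29.7% of all genes. In vehicle mice the ratio of lung to cerebellum was 103-fold for Hp, 42.5-fold for Lcn2, 12.7-fold for Lrg1, 8.28-fold for Saa3, 7.90-fold for Cp and 4.10-fold for Steap4, while Hpx differed by 0.12 ± 0.27 (adjusted p = 0.740). In dexamethasone mice all 8 were higher in lung, where 31.5% of all genes were, by 266-fold for Hp, 164-fold for Lcn2, 55.3-fold for Saa3, 53.3-fold for Lrg1, 15.6-fold for Steap4 and 13.1-fold for Cp. Hpx was 2.07-fold higher there (0.00293), with overlapping arrays. Where the cerebellar values were dim, these ratios depend on the floor of the array. The second Steap4 probe set was dim on all vehicle arrays of both tissues, so it could not be compared there.

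By its brightest probe set, each member had dexamethasone lung at the top of its 4 group means. All but Serpina3n then had vehicle lung next and the 2 cerebellar groups below. For Cp, however, 4 of the 8 probe sets had a higher mean in vehicle lung than in dexamethasone lung. For Serpina3n the order ran from dexamethasone lung over dexamethasone and vehicle cerebellum to vehicle lung. The 2 cerebellar groups, which are neighbours in each of these orders, were not separated by the test for any member. For Hpx, vehicle lung at 4.52 ± 0.27, dexamethasone cerebellum at 4.30 ± 0.23 and vehicle cerebellum at 4.40 ± 0.11 (SD, n = 4 each) lay within their spread.

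Among 25 other acute phase genes that were measured, of 32 listed, 5 rose and 1 fell in lung, beside 15.7% and 15.5% of all genes, with a median change of 0.29. Of the 25, 14 were dim on all dexamethasone lung arrays and 18 on all vehicle lung arrays. Orm1, which encodes the plasma carrier orosomucoid, rose 7.55-fold (2.92 ± 0.67 SE, adjusted p = 0.00327), but was dim on all vehicle lung arrays, so the fold depends on the floor of the array. Its neighbour Orm2 read 0.69 higher on the log2 scale (0.0272) and was dim on all 8 lung arrays. The 2 genes are close copies, so their signals may be mixed. Cd14, the co-receptor for bacterial lipopolysaccharide, rose 3.92-fold (0.000261). A2m, a broad protease inhibitor of plasma, was the gene that fell, by 2.47 on the log2 scale (6.97e-07). Saa1, a serum amyloid A of the liver, was higher by 0.89 without passing (0.115). In cerebellum Itih3, a hyaluronan-binding plasma inhibitor, rose 3.17-fold (0.00216), Ptx3, a secreted pattern-recognition pentraxin, was lower by 0.75 on the log2 scale (0.00709), and the median was 0.03.

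Of 26 genes of interleukin 6, interleukin 1 and STAT3 signalling, 15 rose and 1 fell in lung, beside 15.7% and 15.5% of all genes. Their median change was 0.45, against 0.05 over all genes. Il1b, the cytokine, rose 5.96-fold (4.48e-07) and its natural antagonist Il1rn rose 4.68-fold (8.06e-05). Cebpd, a C/EBP factor of the acute phase response, rose 3.47-fold (2.83e-05), and Socs3, the feedback inhibitor of STAT3, rose 1.45 on the log2 scale (8.59e-05). Il1b, Il1rn, Cebpd and Socs3 were named for having the smallest adjusted p in lung, so they do not stand for the list. In lung 10 of the 26 genes were not called. Stat3 rose 1.33-fold (0.0148). Il6 itself read 0.99 higher on the log2 scale (0.00179), but it was dim on all 8 lung arrays, so no fold is given. In cerebellum none of the 26 passed, where 4.80% of all genes did, and the median was 0.00.

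Complement genes, to which C3 belongs, gave 9 rises and 1 fall among 18 measured in lung, with a median of 0.61. Over all genes 15.7% rose and 15.5% fell there. Itgam and Itgb2, the chains of the complement receptor 3 of myeloid cells, rose 4.66-fold (9.09e-05) and 2.05-fold (2.57e-05). C5ar1, the receptor for the C5a fragment, rose 2.52-fold (0.000122), and Cd55, which limits complement on the cell's own surface, rose 1.92-fold (0.000130). Itgam and C5ar1 were dim on all vehicle lung arrays, so their folds depend on the floor. 3 of these 4 are genes of myeloid cells as well as of complement. Cfp, which encodes properdin, was the gene that fell. In cerebellum none of the 18 passed, where 4.80% of all genes did, and the median was −0.17.

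Among 22 measured genes of iron, copper and haem handling, 9 rose and 3 fell in lung, beside 15.7% and 15.5% of all genes. Their median change was 0.32. Ltf, the iron-binding lactoferrin of neutrophil granules, rose 6.78-fold (1.47e-07), Atp7b, a copper pump that loads ceruloplasmin in liver, 2.42-fold (2.06e-05), and Fth1, the ferritin heavy chain, 1.79-fold (3.36e-05). Heph, a membrane ferroxidase related to ceruloplasmin, fell by 1.96 on the log2 scale (1.45e-06). Cd163, the macrophage receptor for haptoglobin with haemoglobin, rose by 1.76 on the log2 scale (0.00255) and was dim on all vehicle lung arrays. These named genes are a few of the 22 and do not stand for the list. In cerebellum 2 of the 22 rose and 1 fell, beside 2.84% and 1.97% of all genes. Slc40a1, the iron exporter ferroportin, fell by 1.24 (9.68e-05), and Tfrc, the transferrin receptor, was higher by 0.66 (0.00244).

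**Figure D4:**
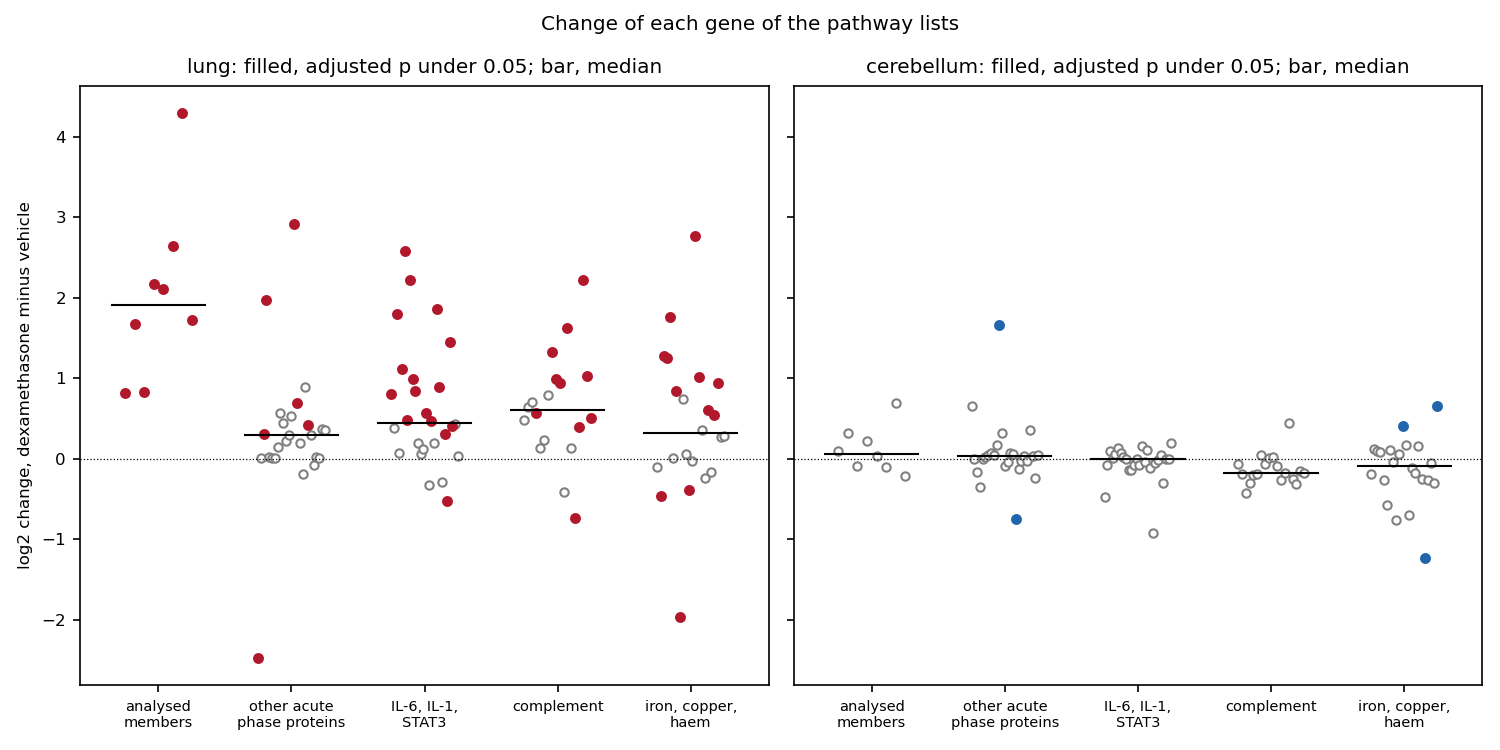
Changes of the genes of the members and of 4 related lists with dexamethasone, as log2 dexamethasone minus vehicle, in lung and in cerebellum, with a point per gene and a bar for the median of the list. In lung the medians were 1.91 for the members, 0.29 for other acute phase proteins, 0.45 for interleukin and STAT3 signalling, 0.61 for complement and 0.32 for iron, copper and haem handling.

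Markers of several cell types moved with the members in lung, where 15.7% of all genes rose and 15.5% fell. All 13 measured neutrophil genes rose, with a median of 1.90, and Mmp8 and Cd177 rose 14.3-fold and 12.8-fold. Their mean log2 intensity was 9.63 to 10.34 in dexamethasone lungs, against 7.72 to 8.40 in vehicle lungs, and the ranges did not overlap. Among the dexamethasone lungs the neutrophil mean was highest on B28 and B40, both at 10.34, and 10.20 on B46, whereas 7 members were highest on B46. It was lowest on B31, as 7 members were. In cerebellum, by contrast, no neutrophil gene rose and 2 fell, beside 2.84% and 1.97% of all genes. S100a8 fell by 1.72 and S100a9 by 1.59. The neutrophil means were 5.44 to 5.76 in dexamethasone and 5.93 to 6.21 in vehicle cerebella.

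Of 13 macrophage and microglia genes, 7 rose and 2 fell in lung, beside 15.7% and 15.5% of all genes. Chil3, Marco and Tyrobp rose 25.5-fold, 9.12-fold and 2.29-fold, while Cx3cr1 fell by 1.36 (0.00606) and Aif1 by 0.76 (0.000120) on the log2 scale. Aif1 was dim on all dexamethasone lung arrays. Their mean was 9.25 to 9.85 in dexamethasone lungs, lowest on B31 and highest on B46, and 8.55 to 8.77 in vehicle lungs. Of 8 airway secretory genes 5 rose, among them Bpifa1 by 19.02-fold, and the mean was 11.18 to 11.88 in dexamethasone lungs against 9.59 to 10.88 in vehicle lungs. Of 8 alveolar type 2 genes 5 rose, with means of 13.002 to 13.14 against 12.33 to 12.72. Fibroblast and endothelial genes went the other way, 5 of 8 falling in each list, with medians of −1.11 and −0.50. The part that such cell types had in the rise of the members was not tested.

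Hepatocyte genes were not among those that moved. None of 9 passed in lung, where 15.7% of all genes rose and 15.5% fell. Their mean was 4.74 to 5.11 in dexamethasone lungs, against 4.71 to 5.04 in vehicle lungs. Of the 9, 8 were dim on all dexamethasone lung arrays. Alb, which encodes albumin, changed by 0.01. Hepatocyte markers were thus at or near the floor of the lung arrays in both groups. None of 5 adipocyte genes passed in either tissue, but 3 were dim on all dexamethasone lung arrays and 4 on all arrays of each other group. In cerebellum 3 of the 13 macrophage and microglia genes fell (Tyrobp, Cd68 and Lyz2) and none rose, with a median of −0.21. Endothelial genes fell for 5 of 8 there, with a median of −0.68, and fibroblast genes for 3 of 8, with a median of −0.63. Of 7 choroid plexus genes 1 fell, and of 9 granule and Purkinje neuron genes 2 rose. Over all genes 2.84% rose and 1.97% fell in cerebellum, and counts this small on short lists say little.

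**Figure D5:**
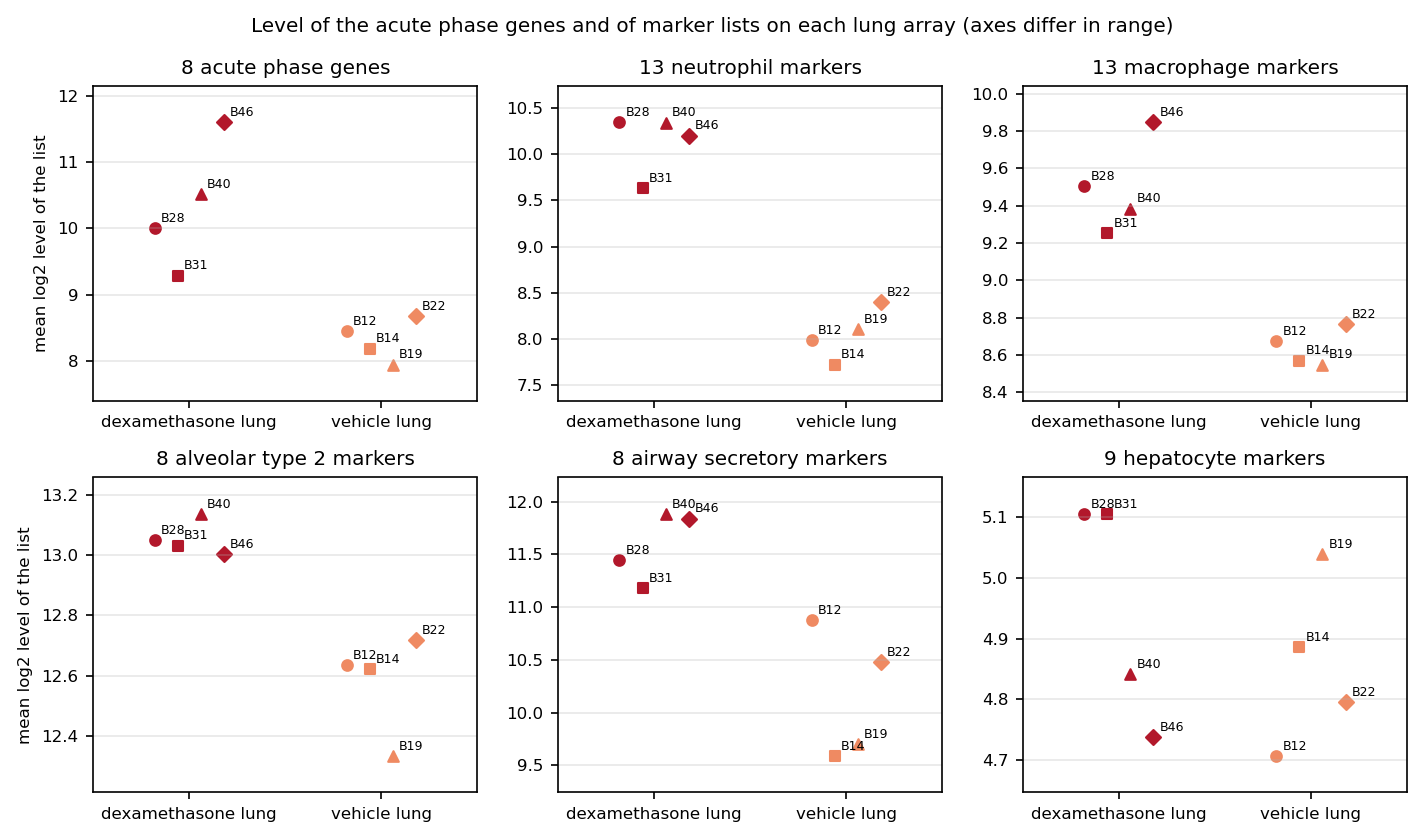
Mean log2 intensity of the genes of each list on each lung array, dexamethasone arrays left of vehicle arrays. Neutrophil, macrophage, alveolar type 2 and airway secretory means lie higher on every dexamethasone array than on any vehicle array, and hepatocyte means overlap between 4.71 and 5.11.

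Genes with the profile most like that of Serpina3n over the 16 arrays were found by the root mean square difference of log2 values after each gene was centred on its own mean. Arg2 was nearest at 0.71, then Igfbp3 at 0.78, Zbtb16 at 0.84, Scara5 at 0.86, Fkbp5 at 0.87 and 1110064A23Rik at 0.88. In lung these 6 rose between 5.03-fold (Fkbp5) and 8.83-fold (Scara5). Fkbp5 encodes a chaperone of the glucocorticoid receptor and is a well-known target of it. For Lcn2 the nearest genes outside the members were S100g at 0.54, Cyp4b1 at 0.54, Chia1 at 0.57, Akr1c14 at 0.61, Aqp5 at 0.62 and Msln at 0.65. They rose in lung between 2.21-fold (Aqp5) and 5.06-fold (Chia1). Of the members, Hp was nearest to Lcn2 at 0.65. The points share arrays, and the tissue difference carries much of each profile, so likeness here says little beyond a common pattern over the 4 groups.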

How the data were processed

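Total RNA from 16 samples was labelled with biotin as cRNA and hybridised to Affymetrix arrays, as the labels' protocols state. Per the submitters' processing notes the authors used RMA, of which no settings are known here, and the deposited table holds log2 intensities. RMA shrinks differences between dim probe sets, so folds near the floor understate a change. Arrays give no depth, and 4 per group limit the precision. All columns of the deposited table were used.

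Of 45101 probe sets, 64 array controls, 932 with several symbols and 9160 with none were left out. Symbols came from the platform annotation, updated through the RefSeq table for 18032 of 18193 genes. The brightest probe set on average stood for each gene, and 9010 genes had more than 1. limma 3.58.1 in R 4.3.3 fitted 1 mean per group (lmFit, eBayes) with 12 residual degrees of freedom, on all 16 arrays, and p-values were adjusted by Benjamini-Hochberg over all genes. A gene was called at an adjusted p under 0.05, and no filter on dim genes was used. Contrasts were dexamethasone minus vehicle in each tissue, the lung change minus the cerebellar change, and lung minus cerebellum in each treatment. The fit was tried on simulated data with 200 changed genes and the same spread of a gene in all groups, which the real data did not always have. It found 92% of 2-fold changes in lung and 85.5% in cerebellum, and 56.5% and 55.5% of 1.5-fold changes. False calls made up 0.893% to 7.57% of the found and false calls together. All samples carry 1 hybridization date.

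The members and gene lists were chosen with earlier results of these data known. Named genes were all members, up to 4 called genes per list with the smallest adjusted p in each tissue, and the 6 nearest profiles of Serpina3n and Lcn2. Exceptions named after their values were seen are Saa1, Serpina3i, Il6, Stat3, Cfp, Cd163, Cx3cr1, Alb and, as a check of the samples, Xist. Alternatives were other probe sets, their mean, a filter on dim genes that kept 12897, a second quantile or cyclic loess normalization, a variance trend, array weights, covariates, the compared arrays alone, and leaving out each array.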

Additional observations from a re-analysis of the deposited data

Results flagged for a closer look

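For 5 members the change with dexamethasone differed between lung and cerebellum by the test of that difference (limma, adjusted over 18193 genes). The lung change exceeded the cerebellar change by 3.60 on the log2 scale for Serpina3n, 2.07 for Lrg1, 1.95 for Lcn2, 1.93 for Steap4 and 1.36 for Hp. In no group of 4 arrays did any of the 8 members have an array far enough from the other 3 to pass Dixon's test (32 groups examined).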

How the results depend on the processing

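No paired analysis was possible because the groups share no replicate names. With the Gapdh 3′ minus 5′ difference as a covariate, which overlaps with treatment in lung and with tissue, 856 genes rose and 950 fell in lung, with 3 members called, against 2860, 2819 and 8 without it. The difference between tissues then gave 914 genes higher, 1095 lower and 3 members higher (1792, 2087 and 5 without it), and the vehicle tissue comparison 2559 higher, 2494 lower and 0 members lower (5086, 5411 and 1). Array weights gave 962 rises and 737 falls in cerebellum, against 516 and 358.

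Leaving out 1 array at a time gave 6 to 8 members higher in lung, 0 to 1 in cerebellum and 4 to 7 in the difference, and 0 to 1 lower in vehicle lung than in vehicle cerebellum. Over all genes the ranges were 2357 to 2977 rises and 2391 to 2900 falls in lung, and 305 to 701 rises and 201 to 528 falls in cerebellum. They were 1480 to 1856 higher and 1763 to 2092 lower in the difference, and 4791 to 5265 higher and 5104 to 5566 lower in vehicle mice.

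Signs turned for Cp by probe set: −0.21, −0.0135, −0.70 and −0.35 in lung, −0.0095, −0.13, −0.25 and −0.17 in cerebellum, and −0.20, −0.46 and −0.18 in the difference. Uncalled cerebellar changes also turned: Saa3 to 0.0277 with Xist as a covariate, Lcn2 to −0.0883 without B39 (−0.0883 to 0.48 over arrays left out), and Lrg1 to −0.00781 with cyclic loess, −0.0667 with the Gapdh covariate and −0.0194 without B78 (−0.0194 to 0.0796). The causes were not tested. Serpina3n, Hp and Lrg1 were called higher in lung in every alternative run. Signal near the floor limits Hpx on all arrays but B40, Serpina3n in vehicle lung, and 4 further members, Lcn2, Hp, Lrg1 and Steap4, in cerebellum. It also limits Saa3 there, which was dim on all but 1 of the 4 arrays of each cerebellar group.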
